A study of Mus musculus with 14 samples.

Results

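The 2 sorted luminal populations of the mouse mammary gland were set against the 3 sorted basal populations, using all 14 Affymetrix mouse genome arrays of the study. The luminal side held 5 arrays, 3 from the CD24highCD49fmed sort and 2 from the CD24medCD49f-/low sort. The basal side held 9 arrays, 3 from each of the sorts CD24medCD49fmed, Thy-1+CD24medCD49fhigh and, without Thy-1, Thy-1-CD24medCD49fhigh. Every array came from untreated virgin female C57BL/6 mice aged 6 to 8 weeks, whose glands had been dissociated and whose cells had been stained for CD45, CD31, Ter119, CD24, CD49f and Thy-1 and sorted. The design text of the series names the luminal sorts progenitor (CD24highCD49fmed) and differentiated cells (CD24medCD49f-/low), and the basal sorts myoepithelial, stem and progenitor cells in the order given above. The paper calls the myoepithelial sort CD24lowCD49fmed, and its methods allow somewhat older mice, whereas the labels give CD24medCD49fmed and the ages above. Whether a replicate is its own mouse or a pool is not given in the labels, so p-values measure the spread between these arrays. A level here is that of a sorted bulk population, in which fewer cells of a type and less RNA per cell cannot be told apart.

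The mammary duct has an inner layer of luminal cells, which face the lumen, make milk and include the cells that carry the estrogen and progesterone receptors. The outer basal layer rests on a basement membrane and consists mostly of myoepithelial cells, which contract to eject milk. Keratins 8 and 18 mark the luminal layer, and keratins 5 and 14 with smooth muscle actin mark the basal layer.

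The deposited values were log2 and centred on each probe set's mean over the 14 arrays, so that 0 is that mean and levels cannot be compared between genes. Because more arrays were basal than luminal, a gene that separates the lineages lies farther from 0 in its luminal arrays. The table had been filtered for probe sets that differed at least 4-fold between arrays, so each share of called genes below is a share of a selected table. Probe sets with 1 symbol were averaged to 6044 named genes, and with 1146 probe sets of several symbols or none they made 7190 rows. Gene lists below are counted over members with a row of their own. These were 26 of 28 basement membrane and hemidesmosome genes, but 12 of 24 milk and secretory and 25 of 53 Wnt genes. A row was called at a two-sided limma adjusted p under 0.05, and a gene had no overlap when the lowest array of 1 lineage lay above the highest array of the other. The distance between those nearest arrays is called the gap.

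All 4 lineage markers separated the sorts. Elf5, an ETS transcription factor of secretory luminal cells, had values of 2.26, 2.58 and 2.28 in CD24highCD49fmed arrays and 3.54 and 3.38 in CD24medCD49f-/low arrays, against a lowest, median and highest value of -2.0, -1.79 and -0.95 in basal arrays. Krt18, a keratin of luminal cells, lay between 1.32 and 1.49 in the luminal arrays, against -1.88, -0.85 and 0.43 in basal arrays. Elf5 was 4.48 log2 higher in luminal cells (SE 0.28, adjusted p = 3.39e-10) with a gap of 3.21, while the gap of Krt18 was 0.89, because the third replicates of the Thy-1+CD24medCD49fhigh and the Thy-1-CD24medCD49fhigh sort came above 0. Krt14, a keratin of the basal layer, read -2.40, -2.75 and -2.13 in CD24highCD49fmed arrays and -2.68 and -2.52 in CD24medCD49f-/low arrays, against -0.05, 1.72 and 1.94 in basal arrays. Acta2, smooth muscle actin, read between -2.11 and -1.69 in luminal arrays, against -0.21, 1.43 and 1.84 in basal arrays. Neither gene overlapped, with gaps of 2.08 for Krt14 and 1.49 for Acta2, and the lowest basal array was Thy-1-CD24medCD49fhigh replicate 2 for Krt14 and Thy-1+CD24medCD49fhigh replicate 3 for Acta2.

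**Figure D1:**
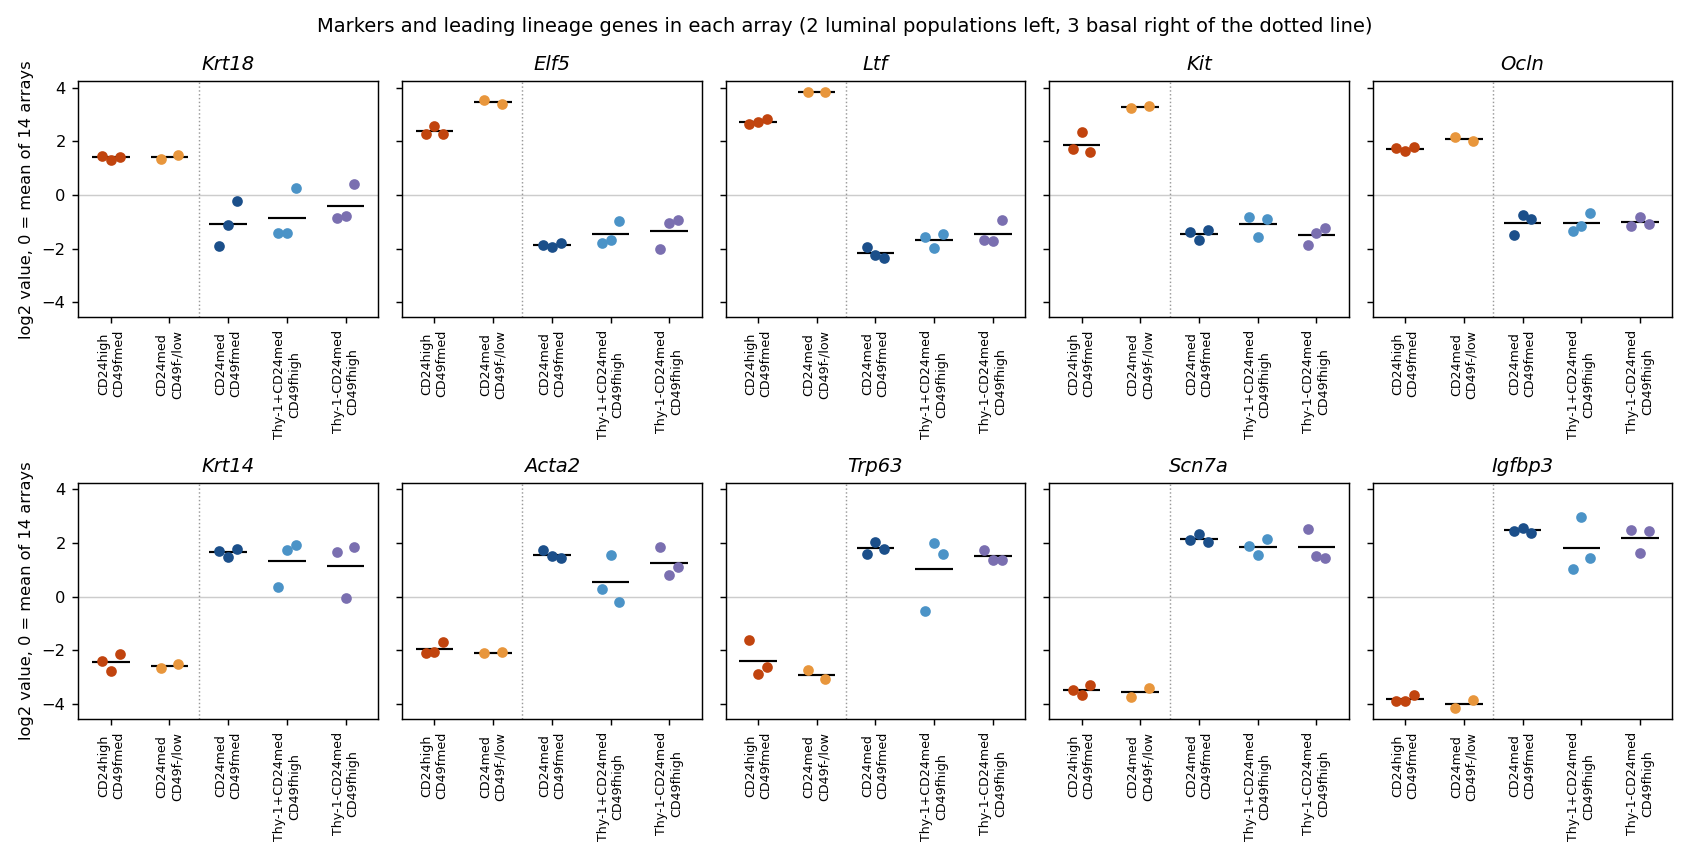
Log2 value of 10 genes in each of the 14 arrays, with luminal populations left and basal populations right of the dotted line, points for arrays and a black line for each population mean. Elf5, Ltf and Kit are higher in the 2 CD24medCD49f-/low arrays than in the 3 CD24highCD49fmed arrays, and every gene shown separates the lineages.

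Over all rows, 1989 were called higher (27.7%) and 1253 lower (17.4%) in luminal than in basal cells. Without overlap, 1183 rows were high in luminal arrays (16.5%) and 684 were high in basal arrays (9.51%), of which 1051 and 597 were named genes. Almost all of these had also been called, 1153 of the 1183 and 671 of the 684, while 1418 called rows overlapped between lineages. A gap of 2 log2 or more was found for 22 rows high in luminal arrays and 40 rows high in basal arrays.

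The split between directions depended on the level of whole arrays. The median over all rows was 0.19 ± 0.10 in luminal arrays (SD, n = 5) and -0.10 ± 0.32 in basal arrays (SD, n = 9), a difference of 0.29 (two-sided exact permutation test over 2002 splits, p = 0.02), and the median luminal minus basal difference over rows was 0.33. Thy-1+CD24medCD49fhigh replicates 1 and 3 had the lowest medians, -0.74 and -0.51. After each array was centred on its median, 1436 rows were called higher and 1560 lower, and 715 and 961 rows had no overlap with the high values in luminal and in basal arrays. Of these, 673 of the 715 and 673 of the 961 also had no overlap as deposited. No row was called one way as deposited and the other way after centring, and no named gene changed sign under centring or quantile normalization.

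**Figure D2:**
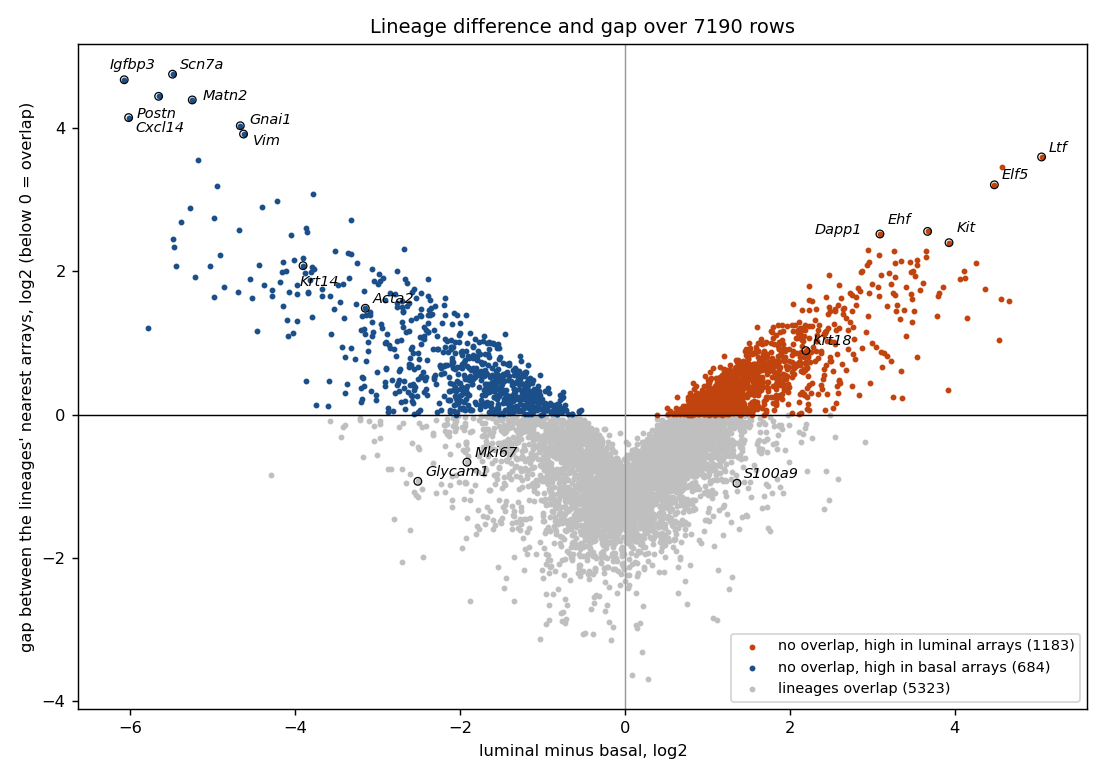
Luminal minus basal difference (log2, horizontal) against the gap between the nearest arrays of the lineages (log2, vertical, below 0 where lineages overlap) for 7190 rows. The widest gap on the basal side is that of Scn7a at 4.75 and on the luminal side that of Ltf at 3.60, and Mki67, S100a9 and Glycam1 were called although their lineages overlap.

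The gene with the widest gap among those high in luminal cells was Ltf, which encodes the iron-binding milk protein lactoferrin. It read 2.65, 2.73 and 2.82 in CD24highCD49fmed arrays and 3.83 and 3.85 in CD24medCD49f-/low arrays, against -2.36, -1.71 and -0.95 in basal arrays. Ltf and Elf5 were followed by Ehf, a second epithelial ETS factor with a gap of 2.56. Ehf read 1.72, 2.62 and 1.87 in CD24highCD49fmed arrays and 2.61 and 2.77 in CD24medCD49f-/low arrays, against -1.82, -1.23 and -0.84 in basal arrays. Dapp1, an adaptor that binds membrane phosphoinositides (difference 3.09, SE 0.25), and Kit, the stem cell factor receptor (3.93, SE 0.27), had gaps of 2.52 and 2.40. Kit read 1.70, 2.34 and 1.60 in CD24highCD49fmed arrays and 3.24 and 3.30 in CD24medCD49f-/low arrays, against -1.88, -1.40 and -0.80 in basal arrays. The luminal arrays of Kit thus differed among themselves by more than 1 log2 and still lay clear of every basal array.

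Ocln, a protein of tight junctions, lay between 1.64 and 2.16 in luminal arrays, against -1.49, -1.07 and -0.66 in basal arrays. Abcc3, an efflux pump for organic anions (gap 2.29), and Slain1, which binds growing microtubule ends (gap 2.23), were equally even over the luminal arrays, at 1.86 to 2.24 and 1.84 to 2.21, against basal ranges of -1.85 to -0.43 and -1.67 to -0.38. Aoc1, a diamine oxidase, was less even. It read 3.88 in CD24highCD49fmed replicate 1 and 1.73 to 2.26 in the other 4 luminal arrays, against -2.48, -1.18 and -0.55 in basal arrays. Clic6, of the chloride intracellular channel family, read 1.79, 1.34 and 1.63 in CD24highCD49fmed arrays and 3.48 and 2.96 in CD24medCD49f-/low arrays, against -1.51, -1.20 and -0.86 in basal arrays, so that its gap of 2.20 was set by CD24highCD49fmed replicate 2.

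The widest gaps on the basal side were above 4 log2. Scn7a, a sodium sensing channel, had the widest gap of all rows with a symbol, 4.75. It read -3.48, -3.66 and -3.31 in CD24highCD49fmed arrays and -3.73 and -3.41 in CD24medCD49f-/low arrays, against 1.45, 2.05 and 2.52 in basal arrays (difference -5.48, SE 0.27, adjusted p = 2.18e-11). Igfbp3, which encodes a binding protein of insulin-like growth factors, read -4.16 to -3.65 in luminal arrays, against 1.03, 2.44 and 2.96 in basal arrays, a gap of 4.68. Postn, the matrix protein periostin, read -4.73 in CD24highCD49fmed replicate 1 and -3.91 to -3.13 in the other 4 luminal arrays, against 1.31, 2.07 and 2.49 in basal arrays. For each of these genes the 9 basal arrays lay within 2 log2 of each other, and over the luminal arrays Postn had the widest range of these genes.

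Matn2, an extracellular matrix adaptor, and Cxcl14, a chemokine, had gaps of 4.39 and 4.15. Matn2 was the most even of the 10 named genes with the widest gaps, at 1.65 to 2.06 over the 9 basal arrays, below which its luminal arrays read -2.75, -2.96 and -3.22 in CD24highCD49fmed cells and -3.69 and -3.96 in CD24medCD49f-/low cells. Gnai1, an inhibitory G protein subunit (-4.66, SE 0.26), and Vim, the intermediate filament vimentin (-4.62, SE 0.25), had gaps of 4.03 and 3.92. Sparc, a collagen-binding matrix protein (gap 3.55), read 0.71 in Thy-1-CD24medCD49fhigh replicate 2, below the other 8 basal arrays at 1.60 to 2.31, and between -3.83 and -2.84 in luminal arrays. Reln, the secreted glycoprotein reelin (gap 3.19), had its 2 lowest basal values, 0.22 and 0.84, in Thy-1+CD24medCD49fhigh arrays, against -3.35 to -2.97 in luminal arrays. Lgals1, galectin 1, was the tenth named gene in this order, with a gap of 3.08.

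Which arrays came nearest to the other lineage was uneven. Among the 1183 rows high in luminal arrays, the lowest luminal array was CD24medCD49f-/low replicate 1 in 639 (54.0%), and the highest basal array was Thy-1-CD24medCD49fhigh replicate 3 in 273 (23.1%) and Thy-1+CD24medCD49fhigh replicate 3 in 200 (16.9%). Among the 684 rows high in basal arrays, Thy-1+CD24medCD49fhigh replicate 3 was the lowest basal array in 295 (43.1%) and replicate 1 in 151 (22.1%). These 2 Thy-1+CD24medCD49fhigh arrays are those with the lowest medians, and CD24medCD49f-/low replicate 1 had the lowest median of the luminal arrays, 0.04. The part of array level in this order was not tested. Without the 3 Thy-1+CD24medCD49fhigh arrays, 1144 rows in place of 684 had no overlap with the high values in basal arrays.

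The smooth muscle genes of the contractile apparatus were almost all higher in basal cells. Of 20 measured members 19 were called lower in luminal cells, none higher, and 15 had no overlap. These shares, 95% and 75%, stand beside 17.4% of all rows called lower and 9.51% without overlap and high in basal arrays, and the list's median difference of -2.85 beside 0.33 over all rows. Actg2, gamma smooth muscle actin (-5.44, SE 0.50), Myl9, a regulatory light chain of myosin (-5.21, SE 0.46), and Tpm2, beta-tropomyosin (-4.16, SE 0.30), led it. Myl9 read -2.83, -3.73 and -2.83 in CD24highCD49fmed arrays and -3.68 and -3.52 in CD24medCD49f-/low arrays, against -0.91, 2.22 and 2.90 in basal arrays. Its lowest basal value was that of Thy-1-CD24medCD49fhigh replicate 2, where the other 8 basal arrays were above 1, whereas Actg2 was lowest in Thy-1+CD24medCD49fhigh replicate 3 at -1.13, against a basal median of 2.78. The mean over the list lay between -1.89 and -1.72 in luminal arrays, against -0.41 to 1.66 in basal arrays. Csrp1, a LIM protein bound to actin filaments, was the 1 member not called (-0.24, SE 0.40, adjusted p = 0.63).

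Smooth muscle genes are textbook targets of serum response factor, which binds the CArG box, and the DNA of their start sites was searched for it. The windows were the 250 bases before to 50 bases after each RefSeq gene start on GRCm38.p6, and the search took the strict CArG box (CC, then 6 letters that are each A or T, then GG, on both strands, which for this box is the same search). Of 17 list members with a window 2 held the box, Myl9 and Cnn2 (calponin 2), or 11.8%, beside 1.81% of 27025 genes with a window, 1.2% of 835 genes with no overlap that were high in luminal arrays and 2.76% of 435 that were high in basal arrays. The measured members Actg2, Tagln and Myh11 had no window. Near matches with another letter inside the box, such as ccctatatgg in the Acta2 window, were not counted. The 2 windows are shown, in the direction of transcription with the box in capitals, because they are the searched ones of this group that carry the strict box.
Myl9: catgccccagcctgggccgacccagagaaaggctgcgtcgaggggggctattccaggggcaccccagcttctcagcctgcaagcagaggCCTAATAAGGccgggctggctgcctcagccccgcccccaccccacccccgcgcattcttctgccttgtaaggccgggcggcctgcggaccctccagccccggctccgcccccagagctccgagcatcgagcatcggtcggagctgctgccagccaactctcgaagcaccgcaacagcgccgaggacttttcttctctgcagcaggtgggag
Cnn2: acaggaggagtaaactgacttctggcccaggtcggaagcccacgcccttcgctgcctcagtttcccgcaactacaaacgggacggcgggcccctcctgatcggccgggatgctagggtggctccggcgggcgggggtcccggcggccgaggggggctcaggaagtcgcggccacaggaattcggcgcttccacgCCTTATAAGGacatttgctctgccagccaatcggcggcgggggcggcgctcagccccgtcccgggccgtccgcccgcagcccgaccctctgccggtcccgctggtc
The Myl9 window is chr2:156775214-156775513 and the Cnn2 window chr10:79988350-79988649, both on the plus strand of GRCm38.p6, and the boxes start at position -161 and -56 from the gene start. Cnn2 was called lower in luminal cells by 1.85 log2 and had no overlap. The letters CATTCC, the core of the site that TEAD factors bind, were in the windows of 7 of the 17 members on either strand (41.2%), beside 16.6% of all genes, 15.6% of the genes high in luminal arrays and 17.9% of the genes high in basal arrays. These are matches of letters in a short window and show no binding.

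Basal keratins and filaments and the basement membrane followed the smooth muscle genes. Of 9 measured basal keratins and filament genes 7 were called lower in luminal cells and none higher (median -3.90), and 5 had no overlap. As shares these were 77.8% and 55.6%, beside 17.4% and 9.51% of all rows. Krt17, a keratin of basal epithelia, had a difference of -5.48 log2 (SE 0.46). Krt5, the partner of keratin 14, read between -3.09 and -2.67 in luminal arrays, against -0.57, 2.23 and 2.62 in basal arrays. Of 26 genes of the basement membrane and hemidesmosome 18 were called lower (69.2%) and none higher (median -2.02), with 17 free of overlap (65.4%). Col4a2, a chain of type IV collagen, read between -3.48 and -2.99 in luminal arrays, against -0.25, 2.11 and 3.21 in basal arrays, and Col17a1, the collagen of hemidesmosomes, differed by -4.91 (SE 0.39). The range of Col4a2 over basal arrays was wider than 3 log2, and its lowest value was again Thy-1+CD24medCD49fhigh replicate 3.

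Apical junction and polarity genes were the counterpart on the luminal side. Of 27 measured members 26 were called higher in luminal cells and none lower (median 1.91), and 23 had no overlap. As shares these were 96.3% and 85.2%, beside 27.7% and 16.5% of all rows. Cldn7, a claudin of tight junctions, read 2.59, 2.49 and 2.46 in CD24highCD49fmed arrays and 2.76 and 2.82 in CD24medCD49f-/low arrays, against -2.34, -1.91 and 0.46 in basal arrays. Cldn8 (3.41, SE 0.33) and Cldn4 (3.14, SE 0.39) were the next claudins. The list mean lay between 1.18 and 1.39 in luminal arrays, against -1.09 to -0.25 in basal arrays, so that the lineages did not meet. Cldn5, best known as the claudin of endothelial cells, was the member not called (-1.19, SE 0.55, adjusted p = 0.0844).

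**Figure D3:**
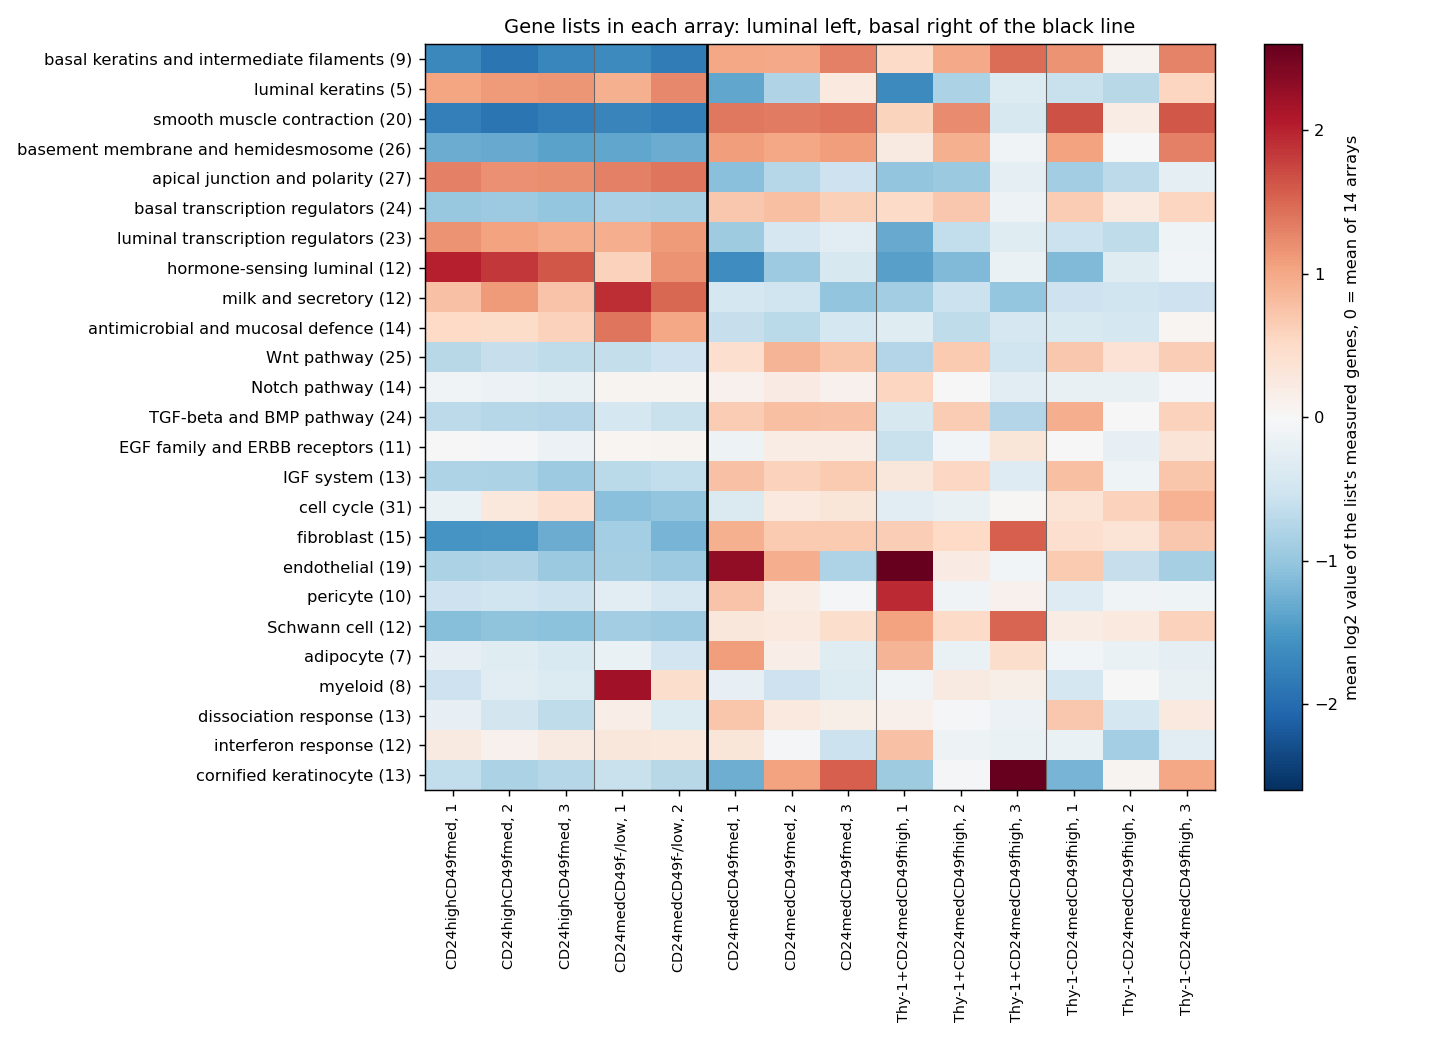
Mean log2 value of each list's measured genes (number in brackets) in each array, red above and blue below the mean of 14 arrays, with luminal arrays left of the black line. Apical junction genes are above 0 in every luminal and below 0 in every basal array. Smooth muscle genes are below 0 in every luminal array and above 0 in all basal arrays but Thy-1+CD24medCD49fhigh replicate 3 (-0.41). The endothelial list reaches 2.58 in Thy-1+CD24medCD49fhigh replicate 1 and 2.31 in CD24medCD49fmed replicate 1, and the pericyte list 1.95 in the former. The myeloid list is highest in CD24medCD49f-/low replicate 1 (2.18). The cornified list reaches 3.28 in Thy-1+CD24medCD49fhigh replicate 3 and 1.54 in CD24medCD49fmed replicate 3.

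Of 23 regulators linked to luminal cells 16 were called higher in luminal cells (69.6%, beside 27.7% of all rows), 1 lower and 6 neither way (median 1.84). Elf5, Ehf and Cited1, a transcriptional coactivator (3.35, SE 0.69), had the largest differences. Cited1 ranged from -3.49 to 1.30 over basal arrays, had a gap of only 0.24 and overlapped after median centring. The member called the other way was Prdm1, a zinc finger repressor, which read -1.33, -0.90 and -0.78 in CD24highCD49fmed arrays and -0.55 and -0.40 in CD24medCD49f-/low arrays, against -0.11, 0.53 and 0.92 in basal arrays. Of 24 regulators linked to basal cells 14 were called lower in luminal cells (58.3%, beside 17.4% of all rows), 2 higher and 8 neither way (median -1.23). Id4, an inhibitor of basic helix-loop-helix factors, read between -4.01 and -2.89 in luminal arrays, against -0.54, 2.28 and 2.96 in basal arrays. Trp63, the p63 factor of stratified and basal epithelia, read -1.63, -2.90 and -2.61 in CD24highCD49fmed arrays and -2.75 and -3.07 in CD24medCD49f-/low arrays, against -0.53, 1.61 and 2.03 in basal arrays. Its 1 basal value below 0 was that of Thy-1+CD24medCD49fhigh replicate 1. Snai2, a zinc finger repressor, differed by -3.79 log2 (SE 0.35). The exceptions of this list were Tead2, a DNA-binding partner of YAP, at 2.04 (SE 0.29), and Sox9, an HMG box factor, which read 0.86 to 1.5 in luminal arrays, against -1.12, -0.50 and -0.30 in basal arrays.

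Hormone-sensing, milk and defence genes were mostly higher in luminal cells, with 83.3%, 83.3% and 64.3% called higher, beside 27.7% of all rows. Of 12 hormone-sensing genes 10 were called higher and none lower (median 2.68), and the receptor genes Esr1 (2.94, SE 0.32) and Pgr (2.6, SE 0.30) had no overlap. Foxa1, a pioneer factor for the estrogen receptor, read 2.66, 2.56 and 2.64 in CD24highCD49fmed arrays and 1.12 and 1.83 in CD24medCD49f-/low arrays, against -3.54, -1.25 and 0.88 in basal arrays. Of 12 milk and secretory genes 10 were called higher and 1 lower (median 1.74), with Csn3, kappa-casein (4.06, SE 0.33), and Wfdc18, a whey acidic protein family member (3.85, SE 0.35), behind Ltf. Glycam1, a mucin-like milk glycoprotein that is also made by endothelium, was the one called lower. It read -2.05 to -0.89 in luminal arrays, against -1.82, 0.80 and 4.38 in basal arrays, and the lineages overlapped. Of 14 antimicrobial and mucosal defence genes 9 were called higher and 2 lower (median 1.11). The 2 were Slpi, a secreted protease inhibitor, at -2.15 to -1.51 in luminal arrays, against -0.51, 1.17 and 2.43 in basal arrays, and Chil1, a chitinase-like protein. Chil1 read -0.41 in CD24medCD49f-/low replicate 1 and -2.47 to -2.20 in the other 4 luminal arrays, against -0.37, 1.33 and 1.73 in basal arrays, which left a gap of 0.04.

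Of 25 Wnt genes 15 were called lower in luminal cells (60.0%, beside 17.4% of all rows) and 4 higher (16.0%, beside 27.7% of all rows), with a median of -1.08. Only 5 had no overlap with the high values in basal arrays (20.0%, beside 9.51% of all rows). The list mean was -0.72 to -0.54 in luminal arrays, against -0.75 to 0.88 in basal arrays. The lineages thus met, with Thy-1+CD24medCD49fhigh replicates 1 and 3 at -0.75 and -0.53. Wif1, a secreted Wnt inhibitor, read between -3.23 and -2.75 in luminal arrays, against -1.04, 2.13 and 2.52 in basal arrays, and Dkk3 (-2.96, SE 0.36) and Nkd2 (-2.76, SE 0.34), further modulators of the pathway, followed. The Wnt ligands Wnt5b (1.28, SE 0.37) and Wnt4 (1.2, SE 0.27) and the receptor Fzd4 (1.04, SE 0.30) were called higher, each with overlap. Wnt5b averaged 0.21 in CD24highCD49fmed and 1.53 in CD24medCD49f-/low arrays, and Fzd4 1.14 and 0.13, beside basal means of -0.41 for either gene. Their calls thus rested mostly on a single luminal population each. Of 14 Notch genes 4 were called each way (28.6%, near the 27.7% of all rows called higher, beside 17.4% called lower), and the median of 0.04 became -0.22 after median centring. The members called lower were led by the ligands Dll1, which read -2.52 to -2.38 in luminal arrays, against -0.39, 1.49 and 2.15 in basal arrays, Jag2 (-2.38, SE 0.30) and Jag1 (-1.0, SE 0.28). Those called higher were led by the receptor Notch3, which read 0.76 to 1.99 in luminal arrays, against -1.92, -0.57 and 0.39 in basal arrays, the target Hey1 (1.84, SE 0.39) and Numb, an inhibitor of Notch (1.24, SE 0.26). Jag1 and Hey1 overlapped between lineages as deposited. Jag1 averaged -0.19 in CD24highCD49fmed and -1.17 in CD24medCD49f-/low arrays, beside a basal mean of 0.32.

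Of 24 TGF-beta and BMP genes 12 were called lower (50.0%) and 4 higher (16.7%) in luminal cells (median -0.58), beside 17.4% and 27.7% of all rows. The list mean was -0.76 to -0.46 in luminal arrays, against -0.77 to 0.95 in basal arrays. Here too the lineages met, with Thy-1+CD24medCD49fhigh replicates 1 and 3 at -0.42 and -0.77. Fst, the activin antagonist follistatin, read -3.54 to -2.67 in luminal arrays, against -0.90, 2.31 and 2.81 in basal arrays, and Fstl1, a follistatin-like protein, differed by -4.40 (SE 0.31). Inhbb, the beta B subunit of activin and inhibin, went the other way, at 1.66, 1.53 and 1.37 in CD24highCD49fmed arrays and 2.25 and 2.21 in CD24medCD49f-/low arrays, against -1.55, -0.92 and -0.63 in basal arrays. The subunit and its antagonist thus had no overlap in opposite directions. Among 11 EGF family genes and receptors 3 were called higher (27.3%, near the 27.7% of all rows) and 4 lower (36.4%, beside 17.4%). Erbb3, a neuregulin receptor, read 1.32 to 1.96 in luminal arrays, against -1.72, -1.15 and 0.77 in basal arrays, and Nrg1, which encodes a ligand of it, differed by -1.43 log2 (SE 0.29). Nrg4 and Btc, which encode other ligands of the family, differed by 1.88 (SE 0.28) and 1.71 (SE 0.27). Among 13 genes of the IGF system 6 were called lower (46.2%) and 3 higher (23.1%), with a median of -0.64. Those called lower were led by the binding proteins Igfbp3, Igfbp4 (-3.05, SE 0.31) and Igfbp7 (-2.76, SE 0.29), and those called higher were Igf2r, which clears IGF2 (1.34, SE 0.30), the adaptor Irs1 (1.02, SE 0.29) and the insulin receptor Insr (0.87, SE 0.27). Igf2r, Irs1 and Insr were called in 3, 2 and 1 of the 6 pairs of a luminal with a basal population. Each had its lowest basal mean in Thy-1+CD24medCD49fhigh cells, and Irs1 overlapped after median centring.

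Several gene families held members with no overlap in both directions, which 16.5% of all rows had with the high values in luminal arrays and 9.51% in basal arrays. Of 17 measured keratins 4 (23.5%) were high in luminal arrays (Krt7, Krt18, Krt8 and Krt19) and 4 in basal arrays (Krt17, Krt5, Krt14 and Krt15), and the other 9 overlapped. Krt7, a keratin of simple epithelia, had the widest luminal gap of the family, with 1.90 to 2.76 in luminal arrays, against -2.16, -1.36 and -0.04 in basal arrays. Krt23 had been placed with the luminal keratins and was called the other way, at -1.97, -0.58 and -1.04 in CD24highCD49fmed arrays and -1.14 and -0.19 in CD24medCD49f-/low arrays, against -1.47, 0.99 and 1.60 in basal arrays, with overlap. Among 7 cadherins Cdh1, E-cadherin, was high in luminal arrays (0.77 to 0.98, against -1.45, -0.47 and 0.20 in basal arrays). Cdh2, N-cadherin, was high in basal arrays (-2.25 to -1.45 in luminal arrays, against 0.51, 0.90 and 1.61 in basal arrays), as was Cdh11.

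Of 5 connexins, which form gap junctions, 1 was high in luminal and 2 in basal arrays and 2 overlapped. Gjb2 read 0.33 to 1.81 in luminal arrays, against -1.22, -0.68 and -0.20 in basal arrays, and Gja1 read -2.31 to -1.13 in luminal arrays, against 0.58, 0.89 and 1.09 in basal arrays. Of 5 cyclins 1 was high in each lineage and 3 overlapped, among them Ccnd3, cyclin D3 (1.22, SE 0.32). Ccnd1, cyclin D1, read 0.99 to 1.33 in luminal arrays, against -1.24, -0.62 and -0.12 in basal arrays. Ccnd2, cyclin D2, whose 7 probe sets were averaged, read -2.24 to -1.97 in luminal arrays, against 0.15, 1.35 and 1.81 in basal arrays. Both cyclins were even over the luminal arrays and opposite in direction. Of 10 aldehyde dehydrogenases 1 was high in luminal arrays (10%, beside 16.5% of all rows), 2 in basal arrays and 7 overlapped. Aldh1a3, an enzyme of retinoic acid synthesis, read 1.42, 1.65 and 1.33 in CD24highCD49fmed arrays and 3.25 and 2.92 in CD24medCD49f-/low arrays, against -1.50, -1.12 and -0.80 in basal arrays. Aldh1a1, an enzyme of the same reaction, read -2.76 to -2.17 in luminal arrays, against 0.44, 1.03 and 2.62 in basal arrays.

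Of 28 collagens 16 were high in basal arrays (57.1%, beside 9.51% of all rows) and 1, Col8a1, in luminal arrays (3.57%, beside 16.5%). Col8a1, a chain of a short collagen, read 1.95, 2.03 and 1.95 in CD24highCD49fmed arrays and 1.03 and 1.53 in CD24medCD49f-/low arrays, against -2.12, -0.95 and 0.18 in basal arrays. Of 6 CXC chemokines 3 were high in luminal arrays, led by Cxcl15 (1.94 to 2.91, against -2.88, -1.54 and 0.11 in basal arrays), and 2 in basal arrays, Cxcl14 and Cxcl12 (-2.62 to -2.20 in luminal arrays, against -0.14, 1.63 and 2.33 in basal arrays for Cxcl12). Of 97 genes with a solute carrier symbol 30 were high in luminal arrays (30.9%, beside 16.5% of all rows) and 10 in basal arrays (10.3%, near the 9.51% of all rows). Slc5a7, the choline transporter, led with Slc45a3, reading 1.46, 1.49 and 1.29 in CD24highCD49fmed arrays and 3.51 and 3.02 in CD24medCD49f-/low arrays, against -1.50, -1.23 and -0.81 in basal arrays. Families were also found on a single side. Of 10 claudins 7 were high in luminal arrays and none in basal arrays, while 5 of 9 laminins, 5 of 6 IGF binding proteins and 3 of 11 integrins were high in basal arrays and none in luminal arrays. None of 7 Frizzled receptors and none of 5 Hox factors had no overlap, beside 26.0% of all rows, and with so few members nothing is read from these counts.

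**Figure D4:**
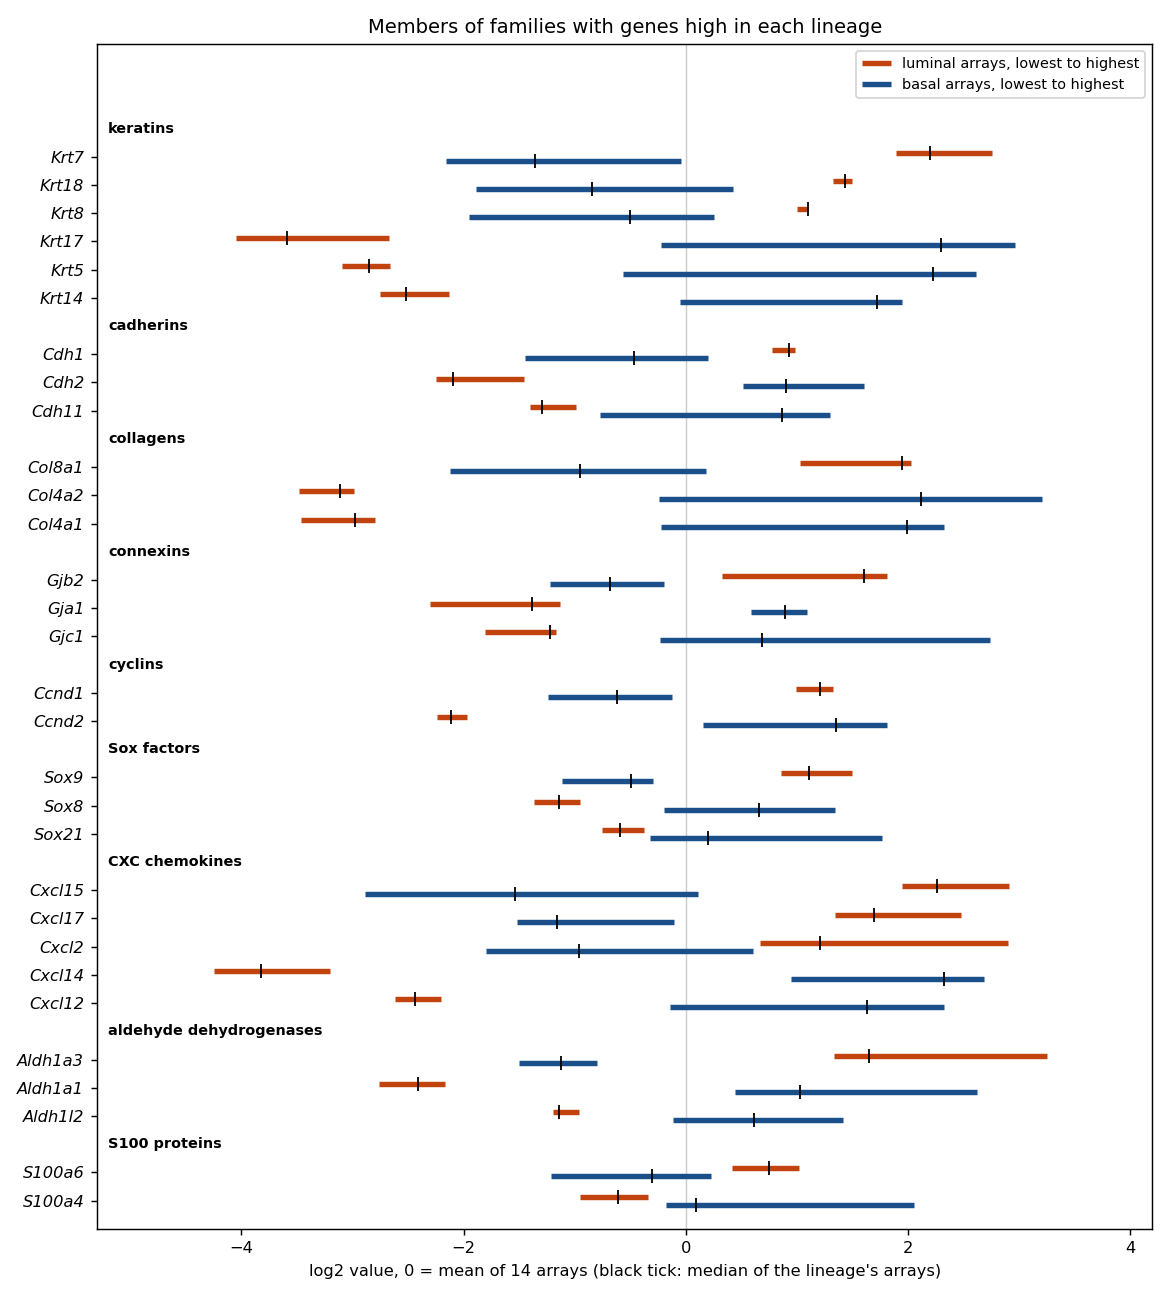
Range of log2 values over 5 luminal arrays (upper bar of each gene) and 9 basal arrays (lower bar), with a tick at the median, for members of 9 families with genes high in each lineage. Ccnd1 and Ccnd2, Gjb2 and Gja1, and Aldh1a3 and Aldh1a1 lie on opposite sides of 0 with no overlap between bars.

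Luminal arrays agreed more closely with each other than basal arrays did. The median SD within a population was 0.22 log2 over the luminal and 0.67 over the basal populations, and 94.3% of rows had the larger SD in basal arrays. With all 14 arrays in the fit, which share that spread, 4 rows (0.0556%) were called between CD24highCD49fmed and CD24medCD49f-/low cells. Among the 3 basal populations limma's F test called 0 (0%) in that fit, where 1007 rows had an unadjusted p under 0.05. A fit on the basal arrays alone was added after the data had been seen. By its F test 349 rows had an unadjusted p under 0.05, and 0 were called. Of the 4 rows called between the luminal populations, 3 were also lineage genes. Mki67, which encodes a nuclear protein of cycling cells, read -0.70, 0.41 and 0.50 in CD24highCD49fmed arrays and -2.62 and -2.84 in CD24medCD49f-/low arrays, against -0.16, 0.48 and 1.65 in basal arrays. Top2a, a topoisomerase of dividing cells, read -0.20, 0.55 and 1.00 in CD24highCD49fmed arrays and -1.90 and -2.49 in CD24medCD49f-/low arrays, against -0.87, 0.36 and 1.18 in basal arrays. Both CD24medCD49f-/low arrays lay below all basal arrays for either gene, while of the CD24highCD49fmed arrays only replicate 1 did so, for Mki67.

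The cell cycle list as a whole showed that pattern. Of 31 members 16 were called lower in luminal cells (51.6%, beside 17.4% of all rows) and 3 higher (median -0.77), and only Ccnd2 had no overlap with the high values in basal arrays. The list mean was -0.18, 0.27 and 0.44 in CD24highCD49fmed arrays and -1.09 and -1.02 in CD24medCD49f-/low arrays, against -0.38 to 0.90 in basal arrays. With CD24highCD49fmed as the only luminal population, Top2a was 0.11 log2 higher in luminal than in basal cells, and with both populations it was -1.21. S100a9, a calcium-binding protein of neutrophils and stressed epithelium, read -0.89, -0.43 and -0.74 in CD24highCD49fmed arrays and 4.10 and 1.25 in CD24medCD49f-/low arrays, against -0.95, -0.27 and 0.06 in basal arrays. Its lineage call (1.36, SE 0.36) rested on the CD24medCD49f-/low arrays, as no CD24highCD49fmed array lay above the basal arrays, and the mean of 8 myeloid genes was highest in the same array, at 2.18 in CD24medCD49f-/low replicate 1, against -0.53 to 0.24 in basal arrays.

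Fitted on the 5 luminal arrays alone, a fit added after the data had been seen, 402 rows were called between the luminal populations, 217 higher and 185 lower in CD24highCD49fmed cells. They included 173 of the 1989 rows called higher in luminal cells (8.7%), 80 of the 1253 called lower (6.38%) and 149 of the 3948 not called (3.77%). Of the 173, 97 were lower and 76 higher in CD24highCD49fmed cells. Atp6v1b1, a proton pump subunit, was 2.02 lower in CD24highCD49fmed cells (SE 0.25, adjusted p = 0.0116), at 1.63, 1.28 and 1.18 in CD24highCD49fmed arrays and 3.74 and 3.03 in CD24medCD49f-/low arrays, against -1.62, -1.29 and -0.56 in basal arrays. Kit fell by 1.39 (SE 0.25), Aldh1a3 by 1.62 (SE 0.20), Elf5 by 1.09 (SE 0.19) and Ltf by 1.10 (SE 0.17) in CD24highCD49fmed relative to CD24medCD49f-/low cells, whereas Cldn8 was 1.56 (SE 0.32) and Foxa1 1.14 (SE 0.23) higher. The hormone-sensing list had means of 2.02, 1.84 and 1.61 in CD24highCD49fmed arrays and 0.60 and 1.17 in CD24medCD49f-/low arrays, against -1.61 to -0.07 in basal arrays, and the milk list had 0.77, 1.11 and 0.75 in CD24highCD49fmed arrays and 1.93 and 1.49 in CD24medCD49f-/low arrays, against -1.02 to -0.46 in basal arrays.

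**Figure D5:**
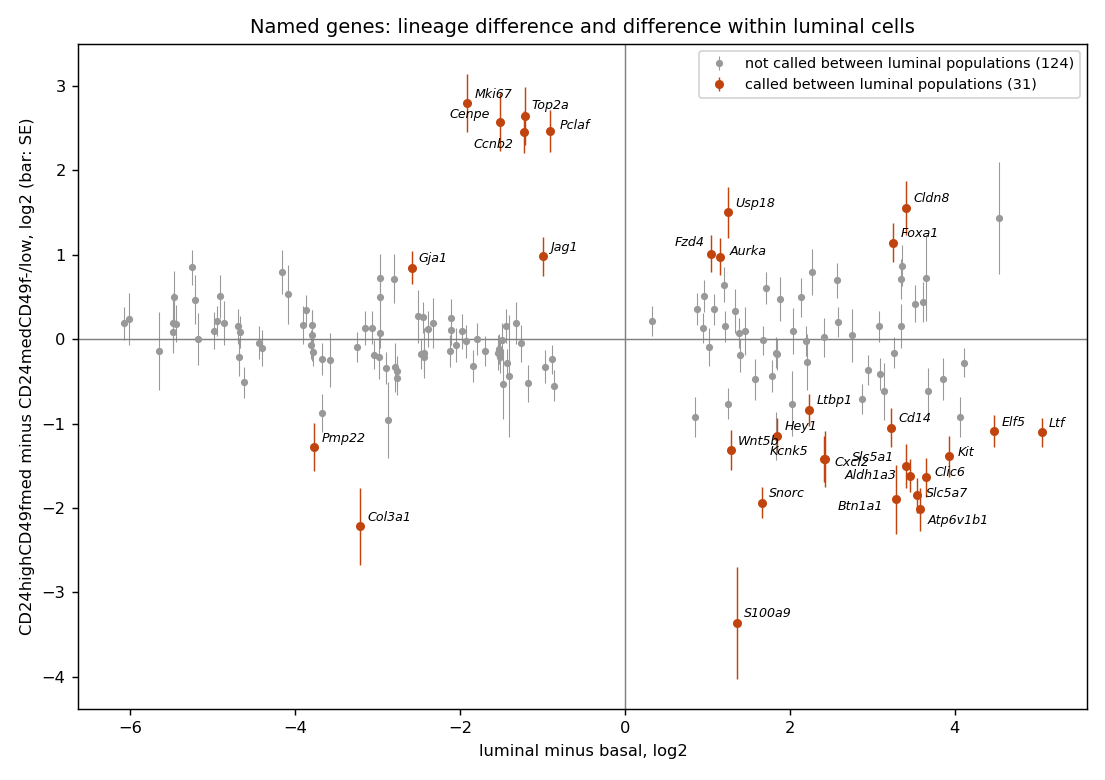
Luminal minus basal difference (log2, 14 arrays, horizontal) against the difference between CD24highCD49fmed and CD24medCD49f-/low cells (log2 with SE, 5 luminal arrays, vertical) for 155 named genes, with the 31 called in the luminal arrays in red. Kit, Aldh1a3, Elf5 and Ltf are higher in luminal than basal cells and lower in CD24highCD49fmed cells, and Mki67 and Top2a are lower in luminal than basal cells and higher in CD24highCD49fmed cells.

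Markers of other cell types also moved with lineage, with 73.3% of fibroblast, 66.7% of Schwann cell, 63.2% of endothelial and 50.0% of pericyte genes called lower in luminal cells, beside 17.4% of all rows. Of 15 fibroblast genes 11 were called lower and 1, Col6a3, higher in luminal cells (median -1.85), and the list mean was -1.54 to -0.88 in luminal arrays, against 0.35 to 1.55 in basal arrays. Postn is on that list. Of 12 Schwann cell genes 8 were called lower and 1 higher (median -1.46), with means of -1.11 to -0.90 in luminal arrays, against 0.20 to 1.51 in basal arrays, and Scn7a heads that list. Of 19 endothelial genes 12 were called lower and none higher (median -1.26), and of 10 pericyte genes 5 lower and 1 higher (median -0.90). The mean of the endothelial list was -0.97 to -0.79 in luminal arrays, against -0.87 to 2.58 in basal arrays. Tek, the angiopoietin receptor of endothelium, read -2.01 to -1.10 in luminal arrays, against -1.78, 1.27 and 4.45 in basal arrays, with the highest values in Thy-1+CD24medCD49fhigh replicate 1 and CD24medCD49fmed replicate 1. The study's methods also list an antibody to CD140α, the Pdgfra receptor of fibroblasts, among the lineage reagents without saying in which sorts it was used, and Pdgfra was called lower in luminal cells (-0.74, SE 0.28). Pecam1, which encodes the CD31 used to deplete endothelium, was not called (-1.25, SE 0.55, adjusted p = 0.0699).

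Without the 3 Thy-1+CD24medCD49fhigh arrays, 6 of 19 endothelial, 11 of 15 fibroblast, 5 of 10 pericyte and 8 of 12 Schwann cell genes were called lower. These stand beside 1617 of all 7190 rows called lower under that setting, in place of 1253 with every array. The medians of the lists were -1.08, -1.78, -0.60 and -0.81. Mbp, the myelin basic protein gene, read -1.77 to -1.33 in luminal arrays, against -0.23, 0.48 and 2.55 in basal arrays, with 2.55 and 2.49 in Thy-1+CD24medCD49fhigh replicates 1 and 3. Of 13 cornified keratinocyte genes 5 were called lower (38.5%) and none higher, and the list mean reached 3.28 in Thy-1+CD24medCD49fhigh replicate 3, against -0.82 to -0.57 in luminal arrays. Scn7a was high in every basal population, with means of 2.17 in CD24medCD49fmed, 1.87 in Thy-1+ and 1.83 in Thy-1- CD24medCD49fhigh cells. The part of other cell types in the basal genes was not tested.

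Averaging probe sets rarely joined opposite signals. Of 796 genes with at least 2 called probe sets, 2 had calls in both directions. Of the 7 probe sets of Mbp 6 were called lower in luminal cells, down to -4.99 (SE 0.47), and 1 higher (1.71, SE 0.28). Daam1, a formin of the planar polarity pathway, had probe sets at 1.08 (SE 0.36) and -1.06 (SE 0.29), and its average of 0.33 (SE 0.26) was not called.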

How the data were processed

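RNA of double-sorted cells was labelled by a 2-cycle 3' protocol and hybridized to 14 arrays. The authors deposited log2 values, normalized by RMA (the submitters' notes also name GCRMA, versions not given in the sources used here), filtered for signal and a 4-fold difference between arrays, and mean-centred per probe set, so no filter on dim probe sets was set here. The number of arrays limits the precision. Of 9645 deposited probe sets, 8499 had 1 symbol, 199 several and 947 none in GEO's platform annotation. All 14 columns were used.

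Population means were fitted by lmFit and eBayes of limma 3.58.1 under R 4.3.3, as the mean of 2 luminal minus the mean of 3 basal means, two-sided, with Benjamini-Hochberg adjustment over 7190 rows. The study's methods name rank products between populations, which was not run here. Array medians were compared by exact permutation (scipy 1.17.1). Tables used Python 3.11.15 (numpy 2.4.6, pandas 2.3.3), figures matplotlib 3.10.9. The fit was tested on simulated data with the same spread in every array of a row, so the wider spread of the basal arrays was not covered. Alternatives were median centring, quantile normalization, single probe sets, equal arrays, array weights, a replicate block, either luminal population alone, no Thy-1+CD24medCD49fhigh arrays, a minimum difference or gap, all 6 population pairs, and each array left out.

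Members and lists were chosen with earlier results of these data known. Named were the 4 markers, the 10 widest gaps each way, up to 3 members of each list each way, genes also called within a lineage (5 each way), members of split families (up to 3 each way with values), and genes with opposite probe sets. Esr1, Pgr, Pecam1, Csrp1, Cldn5, Cnn2, Ccnd3 and Pdgfra, and genes from the 5 luminal arrays alone, were named after their values were seen. Some genes of the array are not reported here. Promoter windows are RefSeq's (GRCm38.p6), and 4792 of the 6044 genes had one.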

Additional observations from a re-analysis of the deposited data

Results flagged for a closer look

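Over 63 items, the array median and genes shown by array, 126 groups were examined for a single array far from the rest. Each group held all arrays of 1 lineage. The rule flagged 6 arrays, close to the 1 group in 20 that chance gives, so nothing is read from their number. Among luminal arrays these were CD24highCD49fmed replicate 3 for Acta2 (-1.69), CD24highCD49fmed replicate 1 for Aoc1 (3.88) and CD24medCD49f-/low replicate 1 for Chil1 (-0.41). Among basal arrays they were Thy-1-CD24medCD49fhigh replicate 2 for Sparc (0.71) and Myl9 (-0.91) and Thy-1+CD24medCD49fhigh replicate 1 for Trp63 (-0.53).

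The difference between CD24highCD49fmed and CD24medCD49f-/low cells was itself called by limma over 14 arrays for 3 genes named above. It was 2.80 log2 for Mki67 and 2.64 for Top2a, with each of the 3 CD24highCD49fmed arrays above both CD24medCD49f-/low arrays, and -3.36 for S100a9, with each of them below both.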

How the results depend on the processing

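Counts called higher and lower were 1436 and 1560 after median centring, 1746 and 1493 after quantile normalization and 2083 and 1346 with the replicate block. With CD24medCD49f-/low as the only luminal population they were 587 and 668, and in each of the 6 population pairs 308 and 328. With a gap of at least 1 log2, 151 rows were high in luminal and 173 in basal arrays, after median centring 715 were high in luminal arrays, and without Thy-1+CD24medCD49fhigh arrays 1144 were high in basal arrays. Of lineage genes, 3 differed between luminal populations as reported, 0 after median centring and 253 in luminal arrays alone. Leaving out 1 array gave 1178 to 2820 called higher and 946 to 1450 lower, lowest without CD24medCD49f-/low replicate 2 (the lone array left was assumed to vary like other groups) and highest without Thy-1+CD24medCD49fhigh replicate 2, and 1196 to 1552 and 687 to 885 rows high in luminal and in basal arrays with no overlap. With CD24highCD49fmed as the only luminal population 4 genes changed sign, S100a9 (-0.32), Top2a (0.11), Pclaf (0.33) and Ccnb2 (0.0064). The causes of these changes were not tested. Of 154 called named genes 116 kept the call under every setting but the 6 pairs, and 18 lost it when 1 array was left out. With each probe set as its own row there was no value per gene.

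Whether replicate numbers pair the arrays is not settled by these values. Deviations of equal numbers correlated at -0.029 to 0.225 between luminal and basal arrays (9 of 15 above 0.1). CD24highCD49fmed and basal arrays correlated best with their own number in 6 of 18 comparisons, which left out CD24medCD49f-/low. Pairing among basal populations was not tested. In CD24medCD49fmed, Thy-1+ and Thy-1-CD24medCD49fhigh cells the endothelial list was highest in replicate 1 (2.31, 2.58 and 0.67). The cornified list was highest in replicate 3 of each (1.54, 3.28 and 1.00). So were the luminal keratins (0.25, -0.36 and 0.56) and the apical junction list (-0.53, -0.25 and -0.25). The same held for the hormone-sensing list (-0.43, -0.18 and -0.07) and the luminal regulators (-0.29, -0.32 and -0.11). The milk and defence lists were not highest in replicate 3 of every basal population. Whether replicate number bears on the overlap of luminal genes was not tested.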

Other observations

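Interferon response and dissociation response genes, which the report does not describe, showed no single direction. Of 12 interferon genes 5 were called higher (41.7%) and 2 lower (16.7%) in luminal cells, beside 27.7% and 17.4% of all rows (median 0.35, near the 0.33 over all rows). Ifih1, a sensor of viral RNA, was 1.85 log2 (SE 0.27) and Iigp1, an interferon-induced GTPase, 2.13 (SE 0.39), against -1.25 (SE 0.37) for Gbp3, a guanylate-binding protein. Of 13 genes linked to dissociation 2 were called higher and 4 lower (median 0.13, and -0.14 after median centring), with Klf6, a zinc finger factor, at 1.40 (SE 0.30) and Ccn2, a matricellular protein, at -3.57 (SE 0.40). Of 7 adipocyte genes 2 were called each way. Of 2 lymphoid and 1 erythroid genes none was called.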
